A study of Mus musculus with 3 samples.

Results

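Newly formed oligodendrocytes are cells of the oligodendrocyte lineage that have left the precursor state and not yet reached the mature myelinating state. In single-cell RNA data from the mouse hypothalamus they were taken as the barcodes with at least 500 unique molecular identifiers (UMIs, each standing for 1 captured RNA molecule) and at most 20% mitochondrial UMIs that passed a rule on named genes. The rule asked for at least 1 UMI of 3 or more of the 8 genes 9630013A20Rik, Tmem163, Enpp6, Itpr2, Rras2, Gpr17, Neu4 and Bmp4, together with at least 1 UMI of Bcas1. It left out any barcode with at least 2 UMIs of Cldn5, Kcnj8, Myh11, P2ry12, Aqp4, Ccdc153 or Dcn, which mark vascular, immune, astroglial, ependymal and connective tissue cells. In all, 228 of 36467 kept barcodes passed, and they are called members here. The members were thus chosen by the counts of these genes, whose levels are given as a description and support nothing.

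The study set hypothalami of 3 groups of 8-week-old male mice against each other, with 1 library per group. QS mice had recovered after exposure to heat, HS mice were exposed to heat, and PF mice were fed as much as heat-exposed mice ate and served as the control for food intake. The study asks how an axis between skin and hypothalamus relates to heat stress and metabolic dysfunction. How many mice went into each library, how long QS mice recovered and at what time of day tissue was taken are not stated in the labels. Tissue was digested with collagenase II, and libraries were made with the 10x Genomics 3′ kit, version 3. The deposited tables hold UMI counts per gene in 11720 (QS), 12510 (HS) and 12836 (PF) barcodes, with 93295920, 103891747 and 100727912 UMIs in all. Between 37 and 51 barcodes were shared by any 2 libraries, and 3 members carried a barcode that another library held too.

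With 1 library a group there is no replicate and no test between groups. Ratios carry exact intervals at 95% confidence that cover counting error only, not differences between animals or preparations. A level is given in CPM, the UMIs of a gene per 1000000 UMIs summed over the cells named. HS and QS were both set against the same PF library, so those 2 comparisons share it.

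In this lineage, precursors that carry the receptor Pdgfra stop dividing, lose it, and pass through a short stage marked by the receptor Gpr17, the lipid phosphodiesterase Enpp6 and the adaptor protein Bcas1. During that stage the cell spreads processes, makes cholesterol and membrane, and begins to transcribe myelin genes; many such cells die if they do not find an axon. Mature cells then add late genes such as Opalin, Mog, Mal and Klk6. In the adult hypothalamus such cells keep being formed, and precursors near the median eminence respond to feeding state.

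The members were of mixed kind, and the name fitted only some of them. The long noncoding RNA 9630013A20Rik, a marker of this stage in mouse brain surveys, split them: 88 members had at least 1000 CPM and 5 UMIs of it, namely 42 in QS, 25 in HS and 21 in PF. These are called the 9630013A20Rik-high members; this split, and each that follows from it, was chosen after the values had been seen. Their median level of 9630013A20Rik was 4605, 5087 and 4333 CPM in QS, HS and PF, while the other members had medians of 31.0, 0 and 71.2 CPM. Between 500 and 2000 CPM lay 5, 4 and 11 members of QS, HS and PF. A further 20 members (4 in QS, 13 in HS, 3 in PF) held at least 3 of the 7 precursor genes Pdgfra, Cspg4, C1ql1, Matn4, Lhfpl3, Pcdh15 and Cacng4. The remaining 120 (52 in QS, 27 in HS, 41 in PF) had neither.

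**Figure D1:**
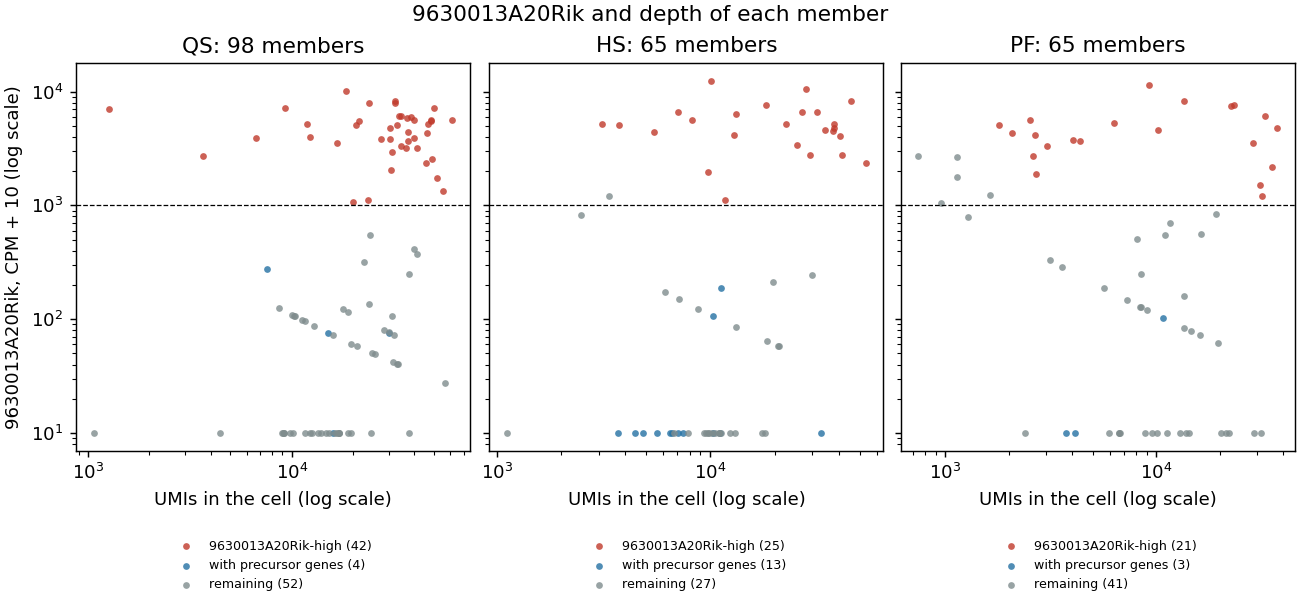
Each point is 1 member, with its UMIs on the horizontal axis and its level of 9630013A20Rik (CPM plus 10) on the vertical axis, both on log scales; panels are QS, HS and PF and colours the 3 kinds. The dashed line stands at 1000 CPM. A band of 42, 25 and 21 high members lies above it, and the few remaining members above the line have fewer than 5 UMIs of the RNA.

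The number of rule markers in a cell went with its kind. Of the 105 members with exactly 3 markers, 4 were 9630013A20Rik-high and 93 were among the remaining, while 52 of the 54 members with 6 markers were high. Just outside the rule stood 447 barcodes with 2 markers and Bcas1; summed over them 9630013A20Rik was at 17.2 CPM and Tcf7l2 at 69.4 CPM. Members with 3 markers, just inside, had 124 CPM and 104 CPM of these genes, and members with 6 markers 5006 CPM and 1108 CPM. Detection also depends on depth: members had a median of 23105, 11042 and 9035 UMIs in QS, HS and PF, against 6965, 6975 and 6514.5 in mature oligodendrocytes of those libraries. Outside the rule, 59 kept barcodes passed the cut on 9630013A20Rik, and 46 of them carried an exclusion gene, most often the endothelial Cldn5 (35 barcodes).

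**Figure D2:**
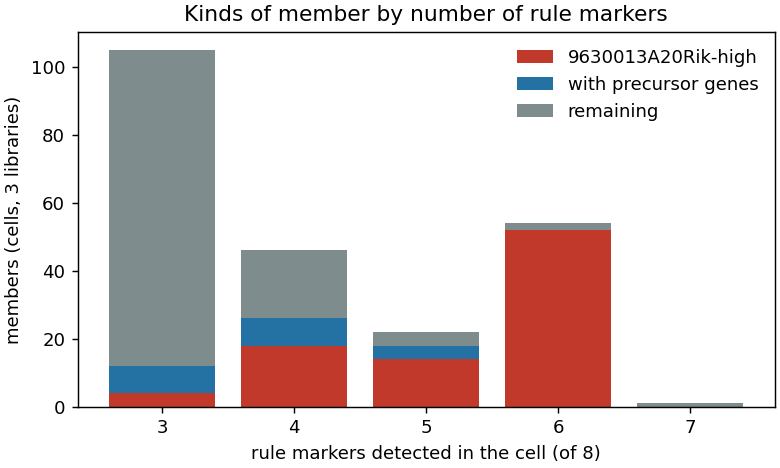
Bars give the number of members, summed over QS, HS and PF, by how many of the 8 rule markers were detected in the cell; colours show the 3 kinds. Remaining members fill 93 of 105 places at 3 markers, and 9630013A20Rik-high members 52 of 54 places at 6.

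The remaining members stood apart from the high members in genes of either state. Marcks, a membrane-bound substrate of protein kinase C, had 36.2, 125 and 98.4 CPM in the remaining members of QS, HS and PF, against 4277, 3367 and 3693 CPM in the high members. Mature oligodendrocytes had 18.1, 36.1 and 39.0 CPM of it, below the summed level of the remaining members in each library. Few cells made the HS sum, since most remaining members of HS had no UMI of Marcks. A cell of 2474 UMIs had 10510 CPM of it and a cell of 1123 UMIs had 4452 CPM. The order against mature cells is therefore not read for HS. Mog, a late myelin glycoprotein, had 3066, 2145 and 2551 CPM in the remaining members and 1179, 1344 and 1301 CPM in the high members, against 1806, 1676 and 1634 CPM in mature cells. The precursor receptor Pdgfra had 481, 581 and 430 CPM in the members with precursor genes and no UMI in any high member. Members are therefore given below as a whole and, where it matters, for the high members alone.

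The rule genes themselves differed within the high members. 9630013A20Rik lies on chromosome 14 (84458639 to 84476424, minus strand, GRCm38) inside Pcdh17, a protocadherin gene on the plus strand. It had 4532, 5076 and 4490 CPM in the high members of QS, HS and PF, and 5.12, 2.67 and 4.08 CPM in mature oligodendrocytes. Pcdh17 was likewise at 2218, 2191 and 2183 CPM in high members and at 127, 138 and 162 CPM in mature cells. These 2 overlapping genes lie on opposite strands. The labels do not say whether the counting used strand, and whether reads of either gene were counted for the other was not tested.

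Enpp6 (chromosome 8, 46986887 to 47096762, plus strand) had 622, 475 and 664 CPM in the high members of QS, HS and PF, against 62.1, 71.6 and 96.5 CPM in mature cells. Tmem163, a zinc transporter, had 1823, 1577 and 2037 CPM in high members, against 85.3, 66.0 and 58.5 CPM in mature cells. For Rras2, a small GTPase of the Ras family, the levels were 920, 731 and 781 CPM in high members and 2.86, 2.26 and 4.69 CPM in mature cells. Itpr2, a calcium release channel of the endoplasmic reticulum, stood at 359, 278 and 449 CPM in high members and 3.92, 9.44 and 7.34 CPM in mature cells. All of these lay higher in the high members of every library, which the choice of cells fixes in part.

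Gpr17, the receptor of the earliest postmitotic stage, was less uniform. It had 179, 146 and 133 CPM in high members and was detected in 41 of 42, 18 of 25 and 13 of 21 of them in QS, HS and PF. Mature oligodendrocytes had 0.452, 0.205 and 0.204 CPM. Neu4, a sialidase, had no UMI in any high member, 2, 15 and 3 UMIs in the members with precursor genes of QS, HS and PF, and 1, 1 and 0 UMIs in the remaining members. Bmp4, a growth factor of committed precursors, had 1 UMI in the high members of HS and none in those of QS and PF. Bcas1, required of every member, had 716, 560 and 752 CPM in high members and 612, 552 and 525 CPM in mature cells, so it hardly separated them.

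Against mature oligodendrocytes the high members were higher in most cholesterol synthesis genes and in some myelin genes, and lower in most genes of the mature state. Of 20 genes of actin and process outgrowth 3 were higher and 3 lower. Mature cells were the 2240 kept barcodes (887 in QS, 653 in HS, 700 in PF) with at least 3 of Mog, Opalin, Hapln2, Ermn, Mag, Aspa, Gjb1 and Ppp1r14a and at most 1 rule marker. A gene was called where the ratio was at least 2 the same way in all 3 libraries with at least 20 UMIs in the higher cell group of each. Of 11175 genes counted, 457 (4.09%) were higher and 1516 (13.6%) lower in the high members. The call asked for no interval. In PF the high members held 307371 UMIs and the mature cells 4903544. A weakly expressed gene thus reached 20 UMIs more easily in mature cells, and the 2 counts are not to be set against each other. The cells were sorted into these classes by expression, so this is a description. For all members the counts were 389 of 11481 genes higher (3.39%) and 305 lower (2.66%).

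The highest ratios among named genes included Shisal1, with 243, 206 and 250 CPM in the high members of QS, HS and PF against 1.05, 0.82 and 0.816 CPM in mature cells. Marcks had 4277, 3367 and 3693 CPM in high members, against 18.1, 36.1 and 39.0 CPM in mature cells. Tnr, an extracellular matrix glycoprotein, had 437, 176 and 426 CPM, against 3.62, 3.90 and 1.83 CPM. Both genes were far apart between the cell groups in every library. The 12 highest also held Dpysl4, Steap2, Kcnj12 (an inward rectifier potassium channel), Sema4f, Cemip2, Rassf10, Alox5, Il23a and Slc22a21. Il23a, which encodes a cytokine subunit, had 101, 80.5 and 68.3 CPM in high members, against 1.05, 1.23 and 1.63 CPM in mature cells. All 12 of the lowest (Lockd, Zfp111, S100a4, Syt9, Ovgp1, Folh1, Lfng, Erich3, Peg10, Btc, Tacc2 and Slc5a11) had no UMI in any high member. Folh1, a glutamate carboxypeptidase, had 58.0, 51.5 and 47.1 CPM in the mature cells of QS, HS and PF. Its ratio in PF had an interval of 0 to 0.257. For each of the others the interval in PF included 1 (Lockd 0 to 2.65, Slc5a11 0 to 1.01), so their zeros in PF lie within counting error.

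Of 17 counted genes of this stage that the rule did not use, 13 were higher and none lower. Fyn, a kinase that signals from axon contact, had 952, 802 and 999 CPM in the high members of QS, HS and PF, against 82.3, 81.8 and 76.1 CPM in mature cells. Tcf7l2, a transcription factor of the Wnt pathway that marks the switch to myelin gene expression, had 913, 846 and 1067 CPM, against 65.9, 70.6 and 64.8 CPM. Cnksr3 had 1119, 1052 and 1292 CPM in high members and 29.4, 36.1 and 32.4 CPM in mature cells. The other 10 were the semaphorin Sema4d, the GTPase Rap2a, Tns3, Fam107b, Mpzl1, Frmd4a, Pik3r3, Kif19a, Man1a and Prickle1. Among lineage transcription factors 4 of 18 were higher (Olig1, Olig2, Tcf7l2 and Sox4) and 1, Nkx2-2, was lower. Sox4 had 147, 154 and 140 CPM in high members, against 10.2, 20.1 and 14.1 CPM in mature cells.

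Cholesterol synthesis genes were high at this stage, 15 of 21 being higher and none lower. Hmgcs1, a synthase at the start of the pathway, had 1779, 1564 and 1604 CPM in the high members of QS, HS and PF, against 333, 295 and 369 CPM in mature cells. Mvd, a decarboxylase further down, had 221, 184 and 325 CPM, against 21.2, 17.4 and 17.5 CPM. The summed levels of both enzymes were higher in the high members of every library.

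Myelin genes did not move as 1 block: 6 of 21 were higher and 5 lower. Mag, an adhesion protein of the innermost wrap, had 9303, 9007 and 9467 CPM in high members of QS, HS and PF, against 2522, 2271 and 2285 CPM in mature cells. Nfasc, whose products anchor the paranode, had 4175, 3842 and 3979 CPM, against 460, 414 and 367 CPM. Mbp, Cnp and Cldn11 were also among the higher ones. Mal, a lipid raft protein of compact myelin, had 278, 131 and 254 CPM in high members, against 6436, 5573 and 5145 CPM in mature cells. Aspa, Ermn, Trf and Gjb1 were lower too.

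Among 12 genes of the mature state 9 were lower and none higher. Klk6, a protease of the latest stage, had 1.49 CPM in the high members of QS and no UMI in those of HS and PF, against 157, 228 and 342 CPM in mature cells. Ptgds, the prostaglandin D synthase, had 1286, 978 and 963 CPM in high members, against 17600, 17980 and 17010 CPM in mature cells. Mog, Opalin and S100b were called neither way, but each differed between high members split by Enpp6, S100b in the opposite direction to Mog and Opalin, as given further on. Genes that answer to glucocorticoids were lower in 7 of 17 and higher in none, and immediate early genes lower in 5 of 21 and higher in none. H2-K1, a class I antigen-presenting molecule, was the 1 gene of its group of 10 that was higher, with 890, 805 and 1233 CPM in high members and 80.9, 182 and 225 CPM in mature cells.

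**Figure D3:**
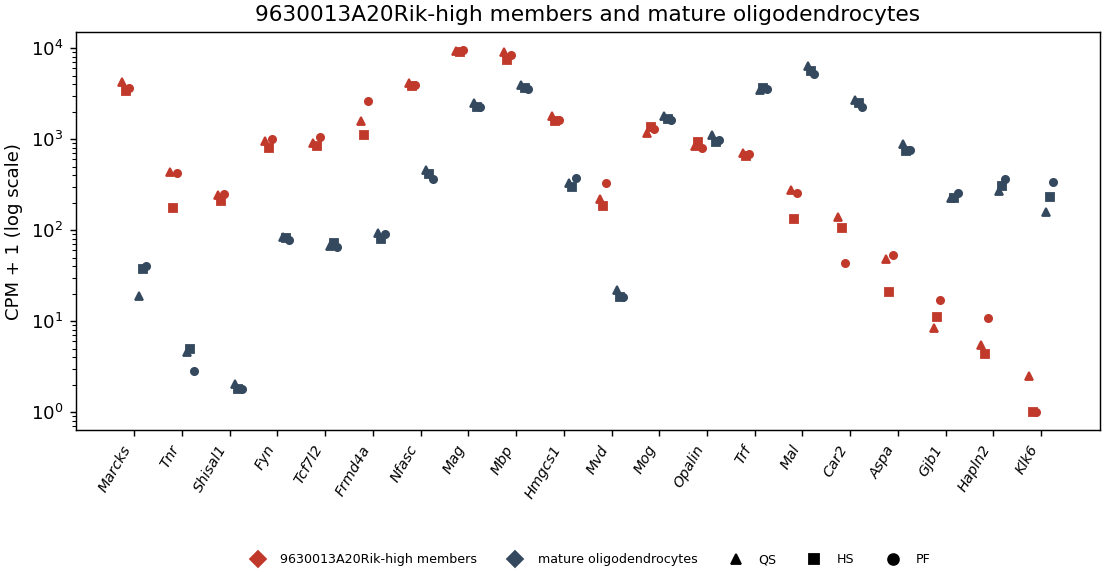
Each gene has its level (CPM plus 1, log scale) in the 9630013A20Rik-high members (red) left of that in mature oligodendrocytes (dark blue); shapes mark QS, HS and PF. Marcks, Tnr and Fyn lie far above the mature level in all 3 libraries, and Mal, Hapln2 and Klk6 lie below it. Mog lies below it by less than the fold asked, and Mog and Opalin were called neither way.

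The high members differed among themselves along Enpp6, a rule gene that not every one of them carried at a high level. At 200 CPM or more of Enpp6 stood 27 of 42 high members in QS (64.3%), 14 of 25 in HS (56%) and 16 of 21 in PF (76.2%). The exact intervals of these shares, 48.0 to 78.4%, 34.9 to 75.6% and 52.8 to 91.8%, overlapped. Of 2950 genes counted, 129 (4.37%) were higher and 50 (1.69%) lower in the Enpp6-high than in the Enpp6-low cells in all 3 libraries. Median UMIs were 34227, 26211.5 and 7722 in Enpp6-high cells of QS, HS and PF and 27306, 22689 and 23417 in Enpp6-low cells, so depth ran one way in QS and HS and the other in PF. PF had 5 Enpp6-low cells, the fewest.

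Genes of the early stage were higher with Enpp6. Mpzl1, an immunoglobulin-like membrane protein, had 1163, 1209 and 1705 CPM in Enpp6-high cells of QS, HS and PF, against 53.9, 83.9 and 52.3 CPM in Enpp6-low cells. Tcf7l2 had 1286, 1244 and 1492 CPM in Enpp6-high cells, against 159, 296 and 126 CPM in Enpp6-low cells. Both summed levels were higher in the Enpp6-high cells of all 3 libraries. Tnr had 631, 292 and 619 CPM in Enpp6-high cells, 42.7 and 16.0 CPM in Enpp6-low cells of QS and HS, and no UMI in those of PF. Of 15 counted stage genes outside the rule 7 were higher (Fyn, Tns3, Tcf7l2, Cnksr3, Mpzl1, Frmd4a and Pik3r3) and none lower. Pdgfa, a growth factor for precursors, had 814, 842 and 1105 CPM in Enpp6-high cells, against 42.7, 59.9 and 83.6 CPM. Slit3 and Sema3e, secreted guidance cues, Steap2, Col9a1 and Pnpla3 were also among the 10 highest.

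Some late genes were lower with Enpp6: of 6 counted genes of the mature state 3 were lower (Opalin, Mog and Mal) and 1, S100b, was higher. Opalin, a sialylated membrane protein of late oligodendrocytes, had 234, 179 and 70.8 CPM in Enpp6-high cells of QS, HS and PF, against 2073, 1941 and 2415 CPM in Enpp6-low cells. Mog had 627, 633 and 236 CPM in Enpp6-high cells, against 2297, 2325 and 3659 CPM. Summed over cells, both genes were lower in the Enpp6-high cells of every library, but single cells overlapped. For Mog in HS, an Enpp6-high cell had 2414 CPM and an Enpp6-low cell of 3735 UMIs had 0. In PF 1 Enpp6-low cell of 31601 UMIs had 6139 CPM of Mog and weighed on the sum. S100b, a calcium-binding protein, ran the other way, with 283, 356 and 368 CPM in Enpp6-high cells, against 80.8, 120 and 83.6 CPM in Enpp6-low cells. Mal and Ermn were also lower, which made 4 of 19 myelin genes lower and none higher. The 10 lowest further held Gpr62, Igsf8, Pdlim2, Nudt4, Slc9a3r2, Synj2, Birc2, Cdc42ep2 and H2afj. Klf9, a target of thyroid hormone and glucocorticoid receptors, was at 408, 373 and 453 CPM in Enpp6-high cells and 108, 55.9 and 73.2 CPM in Enpp6-low cells.

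**Figure D4:**
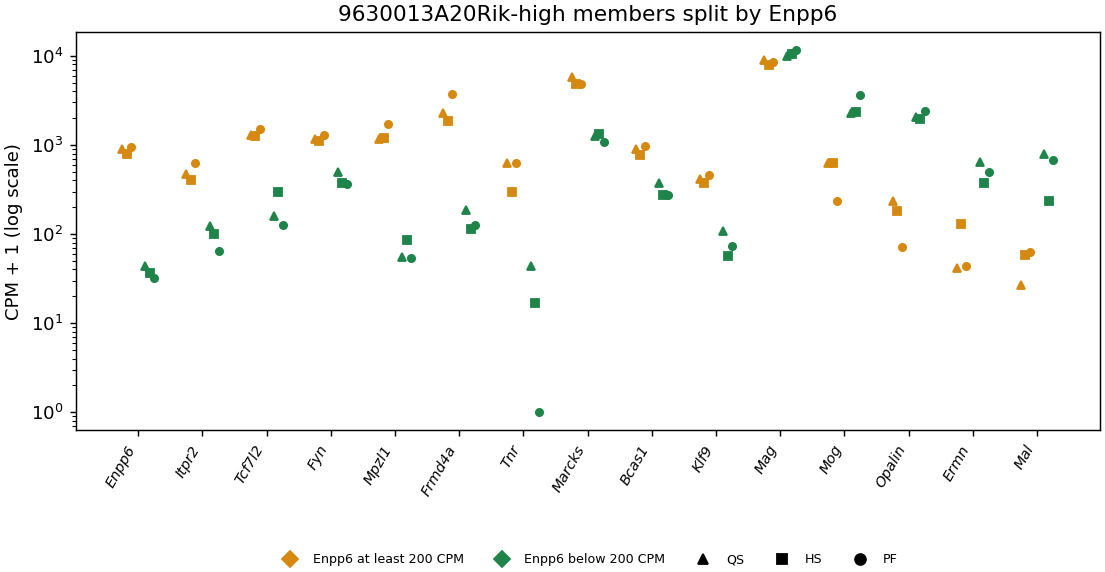
Levels (CPM plus 1, log scale) of selected genes in 9630013A20Rik-high members with Enpp6 at 200 CPM or more (orange, left) and below it (green, right); shapes mark QS, HS and PF. Tcf7l2, Mpzl1 and Tnr are higher and Mog, Opalin, Ermn and Mal lower in the Enpp6-high cells of every library, while Mag differs little.

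The promoters of 2 rule genes, Enpp6 and 9630013A20Rik, and of 2 late genes, Opalin and Mog, are shown. Enpp6 set the split and 9630013A20Rik chose the cells that were split. The contrast between the pairs is thus built in in part and supports nothing. They run from 250 bases before to 50 bases after the annotated start (RefSeq, GRCm38.p6), at chr8:46986637-46986936 on the plus strand (Enpp6), chr14:84476375-84476674 on the minus strand (9630013A20Rik), chr19:41077064-41077363 on the minus strand (Opalin) and chr17:37023349-37023648 on the minus strand (Mog). Capitals mark matches on either strand to ACAATG (the core bound by Sox proteins such as Sox10) and CAGCTG (an E-box bound by basic helix-loop-helix proteins such as Olig2).
Enpp6: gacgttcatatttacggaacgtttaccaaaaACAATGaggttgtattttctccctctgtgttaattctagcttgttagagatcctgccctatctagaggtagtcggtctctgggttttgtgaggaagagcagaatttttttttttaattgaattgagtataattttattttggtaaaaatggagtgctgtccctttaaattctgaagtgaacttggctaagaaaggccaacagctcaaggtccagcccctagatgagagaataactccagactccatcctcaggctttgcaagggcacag
9630013A20Rik: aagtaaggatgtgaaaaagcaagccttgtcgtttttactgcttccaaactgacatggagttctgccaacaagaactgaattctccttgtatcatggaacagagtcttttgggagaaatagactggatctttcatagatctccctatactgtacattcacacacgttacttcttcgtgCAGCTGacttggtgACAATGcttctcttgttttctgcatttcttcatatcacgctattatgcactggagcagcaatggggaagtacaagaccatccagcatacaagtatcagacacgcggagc
Opalin: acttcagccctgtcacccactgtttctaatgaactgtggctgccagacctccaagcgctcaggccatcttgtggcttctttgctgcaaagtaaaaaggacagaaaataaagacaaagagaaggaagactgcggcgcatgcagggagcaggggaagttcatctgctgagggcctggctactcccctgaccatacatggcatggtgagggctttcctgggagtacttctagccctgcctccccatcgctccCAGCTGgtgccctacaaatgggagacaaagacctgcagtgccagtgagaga
Mog: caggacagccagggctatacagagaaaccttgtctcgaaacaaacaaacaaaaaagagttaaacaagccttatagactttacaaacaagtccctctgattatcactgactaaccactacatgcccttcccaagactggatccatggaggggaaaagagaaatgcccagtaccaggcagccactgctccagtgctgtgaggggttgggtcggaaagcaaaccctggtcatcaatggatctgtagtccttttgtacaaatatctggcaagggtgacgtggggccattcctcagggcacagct
ACAATG was found 219 bases before the start of Enpp6 and 59 bases before that of 9630013A20Rik, and 12.6% of 32851 mouse promoters of this length hold it. CAGCTG was found 73 bases before the start of 9630013A20Rik and 1 base before that of Opalin, and 16.3% of the promoters hold it. ATCAAAG, a core bound by Tcf7l2 and its relatives, was in none of the 4 and in 3.73% of all promoters. These motifs do not overlap each other here, and a match is a description of the letters and not a site.

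Members were more frequent among the barcodes of QS. They made up 98 of 11517 kept barcodes in QS (0.851%, 0.691 to 1.04%), 65 of 12305 in HS (0.528%, 0.408 to 0.673%) and 65 of 12645 in PF (0.514%, 0.397 to 0.655%). The ratio was 1.66 (1.20 to 2.30) for QS against PF, 1.61 (1.17 to 2.24) for QS against HS and 1.03 (0.717 to 1.47) for HS against PF. Without the demand for Bcas1 the ratio of QS to HS was 1.25 and its interval included 1. The high members alone made up 0.365%, 0.203% and 0.166% in QS, HS and PF, which gave 2.20 (1.27 to 3.90) for QS against PF and 1.79 (1.07 to 3.07) for QS against HS. Mature oligodendrocytes were also more frequent in QS, at 7.70% of kept barcodes, than in HS (5.31%) and PF (5.54%). Among barcodes of the oligodendrocyte lineage the members' share was 9.85%, 8.86% and 8.41% in QS, HS and PF, and the ratio of QS to PF, 1.17 (0.847 to 1.63), included 1.

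Depth moved with these shares. After each barcode had been thinned to 2000 UMIs, leaving out 2, 1 and 7 shallower members of QS, HS and PF, the rule found 36, 27 and 26 members. Their shares were 0.354%, 0.246% and 0.237% of the barcodes that deep, and the ratio of QS to PF was 1.49 (0.875 to 2.57). For the high members the ratio was then 1.66 (0.944 to 2.98) for QS against PF and 1.66 (0.945 to 2.99) for QS against HS, so both intervals included 1. Of these 89 members 78 were high in this sense. The exclusion genes were counted after thinning too, so not all were among the high members as deposited. PF had 22 after thinning, while 20 of its high members as deposited held 2000 UMIs. Whether cells of a kind were fewer in the tissue or fewer were released and captured cannot be told apart.

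Stage within the high members was read from early genes (Gpr17, Neu4 or Bmp4, at least 1 UMI) and late genes (at least 2 of Mog, Opalin, Hapln2, Klk6 and Aspa). As deposited, early genes were seen in 97.6%, 72% and 61.9% of high members of QS, HS and PF, and at 2000 UMIs a cell in 26.8%, 28% and 40%. Late genes were seen in 69.0%, 60% and 28.6% as deposited and in 41.5%, 40% and 20% at equal depth. The order of the libraries for early genes turned round once depth was equal, and no order is read from it. For late genes PF stayed lowest, with 4 of 20 cells and an interval of 5.73 to 43.7% that overlapped those of QS (26.3 to 57.9%) and HS (21.1 to 61.3%). Early genes were seen in mature cells in 4 of 887, 4 of 653 and 3 of 700 cells as deposited, and 0 of 836, 0 of 629 and 2 of 674 cells at equal depth, with median depths as given above. Gpr17, Neu4 and Bmp4 are rule genes and mature cells were limited to 1 rule marker, so the gap between these cells and the high members was fixed in part by the choice of cells.

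Between libraries a gene was counted when the 2 libraries together held 20 UMIs or more of it, and called with a ratio of at least 1.5 either way, an interval that excluded 1 and at least 20 UMIs in the higher library. In members of HS against PF, 477 of 8994 genes (5.3%) were higher and 319 (3.55%) lower. Among the high members alone it was 204 of 6030 higher (3.38%) and 256 lower (4.25%). In members of QS against PF, 266 of 10124 (2.63%) were higher and 464 (4.58%) lower, and in the high members 258 of 7617 (3.39%) were higher and 306 (4.02%) lower. For QS against HS, 314 of 10424 (3.01%) were higher and 767 (7.36%) lower in members, and 272 of 8060 (3.37%) higher and 277 (3.44%) lower in the high members. Median log2 ratios over all counted genes lay between -0.06 and 0.02 in members and between -0.05 and 0.00 in the high members.

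Precursor genes were higher in the members of HS. Of 12 counted precursor genes 9 were higher in HS than in PF and none lower, with a median log2 ratio of 1.15. Pdgfra had 13.9, 68.4 and 11.8 CPM in members of QS, HS and PF, which gave 5.80 (2.89 to 13.2) for HS against PF. Cspg5, a neuregulin-like proteoglycan, had 39.0, 138 and 23.6 CPM and a ratio of 5.84 (3.56 to 10.1). Lhfpl3 had 48.8, 224 and 82.6 CPM, with 2.72 (2.05 to 3.65). HS was the highest of the 3 libraries for each of these. Against HS, QS was lower in 11 of 12 and higher in none (median -1.81), and against PF lower in 2 of 11 (Lhfpl3 and Pcdh15).

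Members with precursor genes numbered 13 of 65 in HS and 3 of 65 in PF, a ratio of their shares of 4.45 (1.22 to 24.4) over all kept barcodes. After thinning to 2000 UMIs they were 2 and 1, a ratio of 2.0 (0.104 to 118) that included 1. Without those members the median log2 ratio of the precursor genes was -0.50 for HS against PF; they had been chosen by genes of that list, so a fall was built in and supports nothing. Dpp10, Neto2, Tafa1, Gpc6, Zfhx4, Rbfox1 and Dok6, with ratios of 4.53 to 7.66 in members of HS against PF (Neto2, with 3 UMIs in PF, 7.35, 2.29 to 37.6), complete the 10 highest named genes with Zbtb16, Cspg5 and Pdgfra. Dpp10, a subunit of potassium channels, had 6.56, 70.3 and 9.17 CPM in members of QS, HS and PF and was found in 13 HS members. It headed the genes lower in QS than in HS too (0.0934, 0.0507 to 0.162), along with Khdrbs2, Dpp6, Sgcd, Tafa1, Cspg4, Zbtb16, Nxph1, Neto2 and Csmd1. The Csmd1 ratio for QS against HS turned to 3.41 in the high members alone and to 3.15 without the members with precursor genes.

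The genes lower in members of HS than of PF included late ones. Ptgds had 3654, 1084 and 5432 CPM in members of QS, HS and PF (0.200 for HS against PF, 0.187 to 0.213), but 1286, 978 and 963 CPM in high members and 17600, 17980 and 17010 CPM in mature cells. The remaining members had 6538, 1521 and 8796 CPM of Ptgds in QS, HS and PF. With at least 4 rule markers the ratio of HS to PF in members turned to 1.06 (0.924 to 1.21). The mix of kinds differed too, as high members held 57.4% of the members' UMIs in HS and 40.3% in PF. How much each of these entered the low value in HS was not tested. Il33, an alarmin of mature oligodendrocytes, had 46.3, 17.3 and 82.6 CPM in members, with 0.210 (0.117 to 0.359) for HS against PF. Mal had 3975, 1536 and 4288 CPM and a ratio of 0.358 (0.337 to 0.380). Abca8b, Slc8a3, Hebp1, Fam234b, Adamts2, Cadps and Tmod1 were also lower in HS, with ratios of 0.184 to 0.325, but Hebp1 was at 1.55 (0.634 to 4.31) in the high members alone. Of 12 mature genes 4 were lower and none higher, and of 21 myelin genes 3 were lower (Mal, Opalin and Aspa) and none higher.

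In mature oligodendrocytes and remaining members, the glucocorticoid response genes Sgk1 and Zbtb16 were higher in HS than in PF, while high members held few UMIs of either gene in any library. Sgk1, a kinase induced by corticosteroids, had 94.5, 769 and 223 CPM in mature oligodendrocytes of QS, HS and PF, a ratio of 3.45 (3.22 to 3.69) for HS against PF. In the remaining members it had 48.9, 443 and 167 CPM, a ratio of 2.65 (1.99 to 3.57). High members had 30.4, 38.6 and 45.5 CPM of it, and the ratio of 0.847 (0.418 to 1.78) included 1. HS stood far above the other libraries in mature and remaining cells, and within the spread of QS and PF in the high members. The remaining members were not alike between libraries. Enpp6 was detected in 27 of 52 of them in QS, 21 of 27 in HS and 18 of 41 in PF. How far this mix entered their ratios, for Sgk1 and for Zbtb16 below, was not tested.

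Zbtb16, a transcription factor strongly induced by glucocorticoids, had the same form. It had 26.5, 146 and 43.0 CPM in mature cells of QS, HS and PF and 18.6, 128 and 13.7 CPM in the remaining members, with ratios of 3.40 (2.91 to 3.98) and 9.33 (3.94 to 26.9) for HS against PF. The high members held 8, 1 and 0 UMIs of it, among 1346557, 596093 and 307371 UMIs in all. That is at or near the floor, where 3 UMIs would be 9.76 CPM in PF, and no ratio is given. With 1 library a group, whether the high members' ratio differed from that of mature cells was not tested.

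Of 15 glucocorticoid response genes counted in members of HS against PF, 4 were higher (Zbtb16, Fkbp5, Sgk1 and Errfi1) and none lower, with a median log2 ratio of 0.22. In mature cells it was 5 of 18 higher and none lower (median 0.33), beside 1.49% of all genes higher and 3.65% lower there. Among the high members' genes 1 of 10 was higher, Tsc22d3 (a glucocorticoid-induced leucine zipper protein), with 46.8, 109 and 35.8 CPM in QS, HS and PF and a ratio of 3.05 (1.60 to 6.40) for HS against PF. QS was lower than HS in 8 of 14 in members, 14 of 18 in mature cells and 4 of 11 in the high members, and higher in none, where 5.6% of all genes were lower and 2.82% higher in mature cells. The 4 in the high members were Tsc22d3, Nfkbia and the metallothioneins Mt1 and Mt2. Mt1 had 518, 1005 and 1210 CPM in high members of QS, HS and PF, with 0.516 (0.462 to 0.576) for QS against HS.

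**Figure D5:**
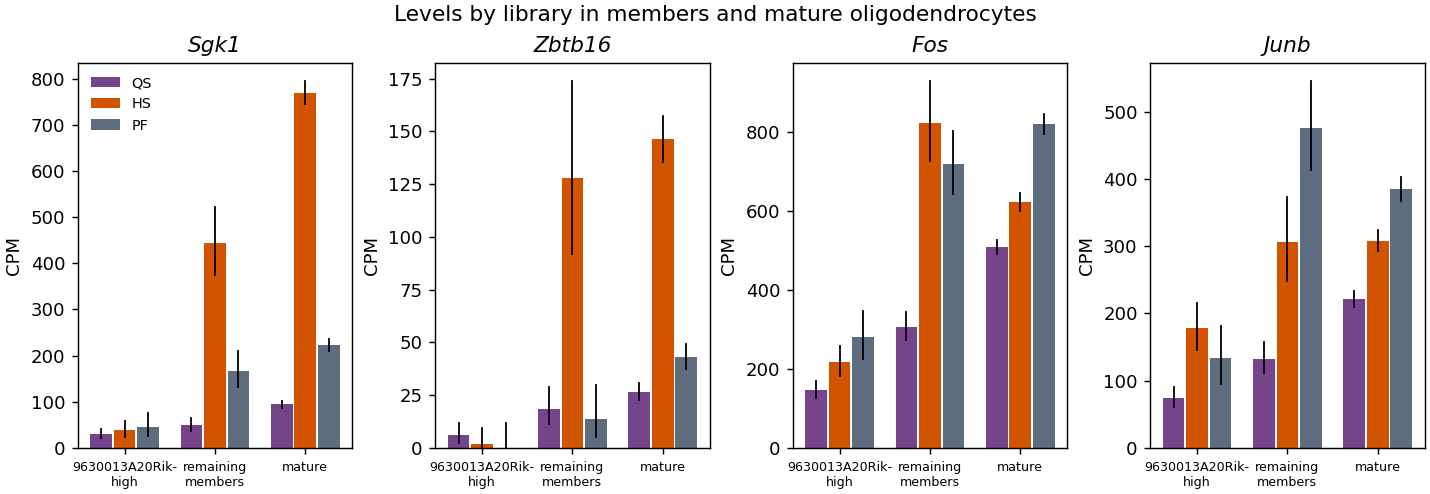
Bars give the level (CPM) of Sgk1, Zbtb16, Fos and Junb in QS, HS and PF for 9630013A20Rik-high members, remaining members and mature oligodendrocytes; lines are exact Poisson intervals that cover counting error only. Sgk1 and Zbtb16 are highest in HS in the remaining and mature cells and low in the high members of every library (Sgk1 30.4, 38.6 and 45.5 CPM), while Fos and Junb are lowest in QS in each cell group.

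Many immediate early genes, which are transcribed within minutes of a stimulus, were lower in QS than in the other libraries. In the high members of QS against PF 8 of 18 were lower and none higher (median log2 ratio -0.83), and against HS 7 of 18 were lower and none higher (median -0.68). Over all genes of the high members 4.02% were lower and 3.39% higher in QS than in PF. Against HS it was 3.44% lower and 3.37% higher. Fos had 146, 216 and 280 CPM in high members of QS, HS and PF, with 0.523 (0.404 to 0.682) for QS against PF. Junb had 74.3, 178 and 133 CPM, with 0.557 (0.384 to 0.822). QS was below both other libraries for each. Of 18 genes counted in members 12 were lower in QS than in PF and none higher (median -0.96), beside 4.58% of all genes lower and 2.63% higher. In mature cells 14 of 21 were lower and none higher (median -0.69), beside 7.92% of all genes lower and 1.66% higher there. The high members' median for QS against HS turned to 0.32 after 5% free RNA was subtracted. Fos in members turned to 1.27 (0.953 to 1.72) for QS against PF with any UMI of an exclusion gene barred.

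RNA of some other cell types was also lowest in the high members of QS, while that of astrocytes and neurons was lowest in PF. Summed over the 6 endothelial markers, the high members held 102, 257 and 267 CPM in QS, HS and PF, while all barcodes that are not members held 6236, 6183 and 6618 CPM. The 7 microglial markers summed to 136, 213 and 329 CPM and the 6 mural markers to 38.6, 75.5 and 114 CPM in the high members. The 6 astrocyte markers summed to 50.5, 77.2 and 22.8 CPM, the 7 ependymal ones to 26.7, 45.3 and 81.3 CPM, the 5 neuronal ones to 29.0, 40.3 and 6.51 CPM, and the 4 fibroblast ones to 0, 15.1 and 13.0 CPM. Each of these lists but the neuronal one holds an exclusion gene, which the rule caps at 1 UMI a cell so that its CPM also depends on depth. Without the exclusion genes the endothelial sum was 88.4, 228 and 234 CPM, the microglial one 130, 210 and 322 CPM, and the mural one 37.1, 73.8 and 107 CPM. The 4 red blood cell markers, none of them an exclusion gene, summed to 25.3, 8.39 and 16.3 CPM and were highest in QS. No UMI was found of Gfap in high members of QS and HS, of Aqp4, Gja1 and Agt in those of PF, of Rax in any, or of Kcnj8 in HS and PF. After subtraction of 5% of each profile as free RNA, the median of the immediate early genes in the high members was 0.32 for QS against HS and -0.35 for QS against PF. The part of these other cells in the result was not tested further.

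Heat shock genes gave a mixed picture. For high members of HS against PF 2 of 19 cytosolic ones were higher (Hsph1 and Dnajb1) and 1 lower (Hspb1), beside the 3.38% of all genes higher and 4.25% lower given above. Hsph1, a co-chaperone of the Hsp70 system, had 69.1, 99.0 and 48.8 CPM in QS, HS and PF, with 2.03 (1.14 to 3.85) for HS against PF. Hspa1a, the inducible Hsp70, had 47.5, 154 and 153 CPM, and was lower in QS than in PF (0.311, 0.210 to 0.463) and than in HS (0.308, 0.220 to 0.428). HS and PF were level for Hspa1a and QS stood below both. In all members Hspa1a had 84.5, 151 and 299 CPM.

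Some antigen presentation genes were lower in QS. In mature cells 13 of 13 class I and immunoproteasome genes were lower in QS than in PF (median log2 ratio -1.09) and 11 of 13 lower than in HS. Of the high members' 5 counted genes 2 (H2-D1 and B2m) were lower in QS than in PF and none higher. H2-K1 had 890, 805 and 1233 CPM in high members of QS, HS and PF, a ratio of 0.722 (0.642 to 0.812) for QS against PF that did not reach the fold asked. In mature cells it had 80.9, 182 and 225 CPM, a ratio of 0.360 (0.324 to 0.400). The high members thus had their own level of H2-K1, above that of mature cells in each library.

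A few genes of the early stage and of sterol synthesis were higher in the high members of PF than in those of HS or QS, while most were called neither way. Frmd4a, a scaffold protein of cell polarity, had 1574, 1121 and 2632 CPM in QS, HS and PF, with ratios of 0.598 (0.551 to 0.649) for QS against PF and 0.426 (0.384 to 0.472) for HS against PF. Stard4, a sterol carrier named here after its values were seen, had 37.1, 20.1 and 91.1 CPM, with 0.408 (0.252 to 0.672) and 0.221 (0.102 to 0.449). PF was highest for both genes. With any UMI of an exclusion gene barred, which leaves fewer high members, the Frmd4a ratio turned to 12.4 for QS against PF and 8.19 for HS against PF. Neither call of Stard4 in 9630013A20Rik-high members held with the cell cut at 2000 CPM, nor did that for QS against PF with those exclusion genes barred. Single cells weighed on both genes, since 34.4% of the Frmd4a UMIs and 28.6% of the Stard4 UMIs of PF came from 1 cell. Of 21 cholesterol genes 5 were lower in HS than in PF and none higher (Fdft1, Mvd, Mvk and Stard4 among them; median log2 ratio -0.33), and 3 lower in QS than in PF (Stard4 among them; median -0.20). In mature cells none of the 21 was called either way in these comparisons. PF also had the largest share of Enpp6-high cells; within the Enpp6-high cells alone Stard4 was at 44.4, 28.9 and 113 CPM, with 0.255 (0.109 to 0.554) for HS against PF. Of 17 stage genes outside the rule 3 were lower in the high members of HS than of PF (Mpzl1, Frmd4a and Pik3r3) and none higher (median log2 ratio -0.30). For QS against PF 2 of 17 were lower (Frmd4a and Pik3r3) and none higher (median -0.08).

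Other named genes differed in members of QS with modest counts behind them. Higher than in PF were Ddx41, Rttn, Ttll12, Hes6, Sephs2, Zcchc2, Tm7sf2, Zbtb21, Gab3 and Meis2, with ratios of 3.0 to 5.48. Ddx41, the highest, rested on 35, 12 and 2 UMIs in QS, HS and PF (5.48, 1.41 to 47.0), and Meis2 turned to 0.461 when Bcas1 was not required. Gab3, an adaptor protein with the most UMIs of these, had 64.4, 45.3 and 21.0 CPM in members of QS, HS and PF, and 3.07 (1.83 to 5.50) for QS against PF. Lower than in PF were Slit3, Ccser1, Esyt2, Banp, Kcnk13, Zyx, Lifr, Tbc1d17, Fbrs and Lyst, with ratios of 0.295 to 0.442. Among these, Kcnk13 (3.76, 0.605 to 155) and Tbc1d17 (1.25, 0.489 to 4.10) turned direction with at least 4 rule markers. Ccser1 (1.504, 0.454 to 7.82) did so with any UMI of an exclusion gene barred. Each of these intervals included 1. Slit3 had 13.5, 36.6 and 45.9 CPM in members, and in the high members 23.02, 52.0 and 107 CPM with 0.214 (0.127 to 0.361) for QS against PF. Higher in QS than in HS were Sars2, Edc4, Uevld, Slc8a3, Wfdc18, Tmod1, Cog1, Itgad, Pigv and Hebp1, with ratios of 3.40 to 4.68; Sars2, at the top, rested on 33, 3 and 8 UMIs in QS, HS and PF (4.68, 1.47 to 23.9). Tmod1, a capping protein of actin filaments, had 143, 40.4 and 124 CPM in members of QS, HS and PF, so that HS stood below both others. With at least 4 rule markers the ratio of HS to PF was 2.27 (0.759 to 9.12), which included 1.

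Few myelin genes of the high members were called between libraries. For QS against PF none of 20 was called either way, for HS against PF 1 was lower (Mal), and for QS against HS 2 were higher (Mal and Aspa). Over all genes of the high members 3.37 to 4.25% were called in each direction. With 20 genes, counts this small do not set the myelin genes apart from the rest. Mal had 278, 131 and 254 CPM in high members of QS, HS and PF, and 59.0% of its UMIs in PF came from 1 cell. Mag, whose values stand above, was not called in any of the 3 comparisons.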

How the data were processed

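The members, the gene lists and the comparisons were chosen with earlier results of these data known. The split by 9630013A20Rik, the precursor-gene split and the split by Enpp6 were chosen after the values had been seen. The authors deposited UMI counts per gene and barcode, not normalized, counted with Cell Ranger against mm10. Version 5.0.0 of it, and Seurat 3.1.2, stand in the submitters' processing notes, but 7.0.1 stands in the file headers. The use of strand and intronic reads is not stated. The raw reads were not analysed here; per the labels, a corrupted file cost those of QS.

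Counts were summed over cells within each library (Python 3.11.15, NumPy 2.4.6, SciPy 1.17.1, pandas 2.3.3) and given in CPM. Levels have exact Poisson intervals, shares Clopper-Pearson intervals, and ratios conditional binomial intervals, at 95% confidence. Deep cells weigh more in such a sum. The calling rule was tested on simulated data. Doublets were called with Scrublet as run in Scanpy 1.11.5 (731, 671 and 783 barcodes of QS, HS and PF, among them 4, 2 and 1 members and no 9630013A20Rik-high member), and removed only as an alternative. Named genes were, per comparison, the 10 highest and 10 lowest ratios among called genes with at least 30 UMIs, at most 25% of them from 1 cell and at least 0.5 times the level of all other barcodes, and list members with the largest ratios. Mitochondrial, ribosomal, haemoglobin and provisional genes were left out of the ranking, and some named genes are not reported here. Gene positions are from GENCODE M21 (GRCm38) and promoters from RefSeq. Alternatives changed the depth, doublet, marker, exclusion, fold and UMI thresholds, thinned barcodes, subtracted free RNA, averaged over cells, and took each kind of member alone.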

Additional observations from a re-analysis of the deposited data

How the results depend on the processing

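With 1 library a group no replicate could be left out, and the precision is limited by the number of members and their UMIs. No paired analysis was possible because each group has 1 library. Of the shares and gene counts recomputed, 179 stayed within 1.5 times or on their side of 1. Of the values of named genes and list medians under the alternatives, 2560 counted as the same. For a gene this means the same direction and call, for a list median a shift below 0.26 in log2. In the same direction 123 gene values lost and 48 gained a call. Another 156 values moved: those of genes not called at first that turned direction, or list medians that shifted by at least 0.26. The 40 values counted as turned were those of genes called at first and list medians that first stood apart by at least 0.26. A gene or list can stand in these counts several times, with a value for each comparison, cell group and setting. After thinning to 2000 UMIs the share of members in QS was 1.49 times that of PF and 1.43 times that of HS, no longer apart from 1. It was 1.25 against HS without the demand for Bcas1. With at least 4 rule markers the share among the lineage was 1.80 for QS against PF, now apart from 1.

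Numbers of genes called follow the thresholds by construction. At a fold of 2, members had 287 higher and 131 lower (HS against PF), 135 and 186 (QS against PF), and 169 and 394 (QS against HS); the 9630013A20Rik-high members had 130 and 101, 168 and 97, and 158 and 99. At 40 UMIs, members had 305 higher and 192 lower in HS, 208 lower in QS than PF and 453 lower in QS than HS; the high members had 127, 109 and 129 lower. With exclusion genes at 1 UMI, which leaves fewer members, HS had 208 lower; QS had 504 higher and 222 lower against PF and 492 higher against HS. The high members then had 25 higher and 35 lower (HS against PF), 128 lower (QS against PF), and 169 higher and 105 lower (QS against HS). Without the demand for Bcas1, 922 were lower in QS than PF and 1437 lower than HS. With 4 markers 418 were higher in QS than PF and 478 lower than HS. Only the high members gave 204 higher in HS, and 306 lower in QS than PF and 277 lower than HS. Without the members with precursor genes, 283 were higher in HS and 399 lower in QS than HS. Only the remaining members gave 253 lower in QS than PF, and 577 higher and 509 lower than HS.

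These results turned direction, and the cause was not tested beyond the change named. For many of the single genes the interval of the turned ratio included 1. With exclusion genes at 1 UMI, in members of HS against PF, the immediate early median was 0.0372, Hspa1a 1.17 and Frmd4a 2.94; in QS against PF the precursor median was 2.37, Ccser1 1.504, Fos 1.27 and Stard4 1.06. In the high members Frmd4a was then 8.19 (HS against PF) and 12.4 (QS against PF), Map3k2 2.52 and Ssh2 1.21, and the glucocorticoid median 0.95 (QS against PF) and 0.47 (QS against HS). With 4 markers, HS against PF gave Ptgds 1.06 and Tmod1 2.27; QS against PF gave the precursor median 0.31, the mature median 1.33, Kcnk13 3.76 and Tbc1d17 1.25; QS against HS gave the antigen presentation median 0.0587. Without Bcas1, Meis2 was 0.461 (QS against PF). In the high members alone, HS against PF gave Ptgds 1.02, Hebp1 1.55, Sgk1 0.847 and Hspa1a 1.01; QS against PF gave the precursor median 0.0350 and Tbc1d17 1.004; QS against HS gave the precursor median 0.41 and Csmd1 3.41. Without the members with precursor genes, that median was -0.50, 0.45 and 0.85 in the 3 comparisons and Csmd1 3.15. In the remaining members alone it was 0.77 (QS against PF) and 0.11 (QS against HS), Stard4 1.71 (QS against PF) and Frmd4a 1.05 (HS against PF). After 5% free RNA was subtracted, the glucocorticoid median of members was 0.0224 (QS against PF) and the immediate early median of the high members 0.32 (QS against HS). With the mean over cells, the glucocorticoid median of the high members was 0.24 (QS against PF).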
